A study of Rattus norvegicus with 6 samples.

Results

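The AMPA and NMDA receptor subunits, the channels that carry most fast excitatory glutamate signalling, were followed in cultured brainstem cells of hypertensive and normotensive rats. The members are the 17 probes of a CodeLink rat bioarray, of 33849 in the series table, whose single gene symbol in the platform annotation is Gria1, Gria2, Gria3 or Gria4 (AMPA receptors, 7 probes) or Grin1, Grin2a, Grin2b, Grin2c or Grin2d (NMDA receptors, 10 probes). The 9 genes, of 12198 named on the array, each had at least 1 probe, and all 17 probes had a value above 0 on every array and were tested. Membership rests on gene names, but the members were chosen with earlier results of these data known. Expression was compared between SHR, the spontaneously hypertensive rat, a strain with inherited high blood pressure, and WKY, the Wistar Kyoto rat with normal blood pressure, with 3 arrays per strain and no other treatment named in the labels. Each array held total RNA of cells combined from 3 dishes. The labels do not give the age of the rats, the brainstem nucleus, the time in culture or whether pools stem from separate litters, so p-values measure the spread between pools, which may be partly technical.

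AMPA and NMDA receptors are assemblies of 4 subunits around a cation pore that opens when glutamate binds. AMPA receptors carry the fast synaptic current, and the edited form of the Gria2 subunit keeps calcium from passing through them. NMDA receptors need glutamate and a co-agonist, glycine or D-serine, and depolarisation that expels magnesium from the pore. Every NMDA receptor contains the Grin1 product, while the Grin2 subunits set its kinetics and magnesium block. In the brainstem, glutamate acting on both receptor classes transmits the baroreceptor signal in the nucleus of the solitary tract and drives the neurons that set sympathetic tone. Glia express some of these genes too, and oligodendrocyte precursors carry AMPA receptors.

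Values are background-subtracted spot intensities after the submitters' normalization between arrays, and differences are log2 intensities, SHR minus WKY, from limma with Benjamini-Hochberg adjustment over 33249 probes. Array medians ran from 439 to 572 units before that step and were 520 on all 6 arrays after it. No probe of the array passed an adjusted p of 0.05 (0 of 33249, or 0%, in limma), and 2545 probes (7.65%) had an unadjusted p under 0.05. The number of arrays, 3 per strain, limits the precision, and the SE of the difference ran from 0.13 to 0.53 over the subunit probes. Probes of different genes bind with different strength, so the levels of different subunits are not ranked against each other.

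Promoter sequence was available for 4 of the 9 genes in the RefSeq table of build GRCr8 (Gria4, Grin1, Grin2c and Grin2d). The 250 bases upstream of the start are shown for Grin1, whose brightest probe separated the strains, and for Gria4, whose 4 probes did not, with CG dinucleotides in capitals. Both lie on the minus strand, Grin1 at chr3:28528755-28529004 and Gria4 at chr8:10319882-10320131.
Grin1: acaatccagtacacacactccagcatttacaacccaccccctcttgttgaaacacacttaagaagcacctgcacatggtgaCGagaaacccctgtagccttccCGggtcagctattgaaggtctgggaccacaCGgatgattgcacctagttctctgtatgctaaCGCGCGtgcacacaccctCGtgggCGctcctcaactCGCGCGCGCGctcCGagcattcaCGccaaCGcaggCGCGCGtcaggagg
Gria4: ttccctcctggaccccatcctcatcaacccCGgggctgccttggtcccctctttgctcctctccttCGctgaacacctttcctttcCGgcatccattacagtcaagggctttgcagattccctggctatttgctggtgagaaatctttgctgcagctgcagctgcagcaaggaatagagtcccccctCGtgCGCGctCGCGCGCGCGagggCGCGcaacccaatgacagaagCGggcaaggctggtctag
The Grin1 stretch held 19 CG dinucleotides at 57.6% G and C, and the Gria4 stretch 14 at 59.6%. Over 33469 promoters of the same length the medians were 5 CG dinucleotides and 51.2%. The CG count exceeded that of 81.6% of these promoters at Grin1 and 72.4% at Gria4. For the share of G and C the figures were 69% and 73.8%. The Grin2c and Grin2d stretches held 8 and 9 CG dinucleotides at 59.6% and 60.4%. None of the 4 upstream stretches contained GGGCGG or TATAAA on either strand, which 30.5% and 12.9% of all upstream stretches held. With the 50 bases after the start added, Grin1 held 1 GGGCGG. These are descriptions of the reference strain's sequence, not of the cultured rats' DNA.

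Among the 17 probes, the smallest p was at Grin1, whose brightest probe was 1.50-fold lower in SHR, with all 3 SHR arrays below all 3 WKY arrays. A dim probe of Grin2b had a larger difference in the opposite direction, 1.59-fold higher in SHR, with overlap between the strains, and was the only other one with an unadjusted p under 0.05. No member passed the adjusted threshold, the smallest adjusted p in limma being 0.506. The count of 2 of 17 probes (11.8%), 1 lower and 1 higher, stands beside 7.65% of all probes, 4.01% lower and 3.65% higher. Differences lay below 0 at 12 of the 17 probes, against 51.6% of all probes, with a median of -0.11 against -0.0099. Without WKY 1 that median was 0.048, and with unnormalized intensities, in which the median of all probes moved to 0.12, it was 0.047. Complete separation of the strains occurred at 1 of 17 probes (5.88%), against 13.4% of the 31327 probes valid on every array. In RNA of whole cultures, fewer cells of a type and less RNA per cell cannot be told apart.

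**Figure D1:**
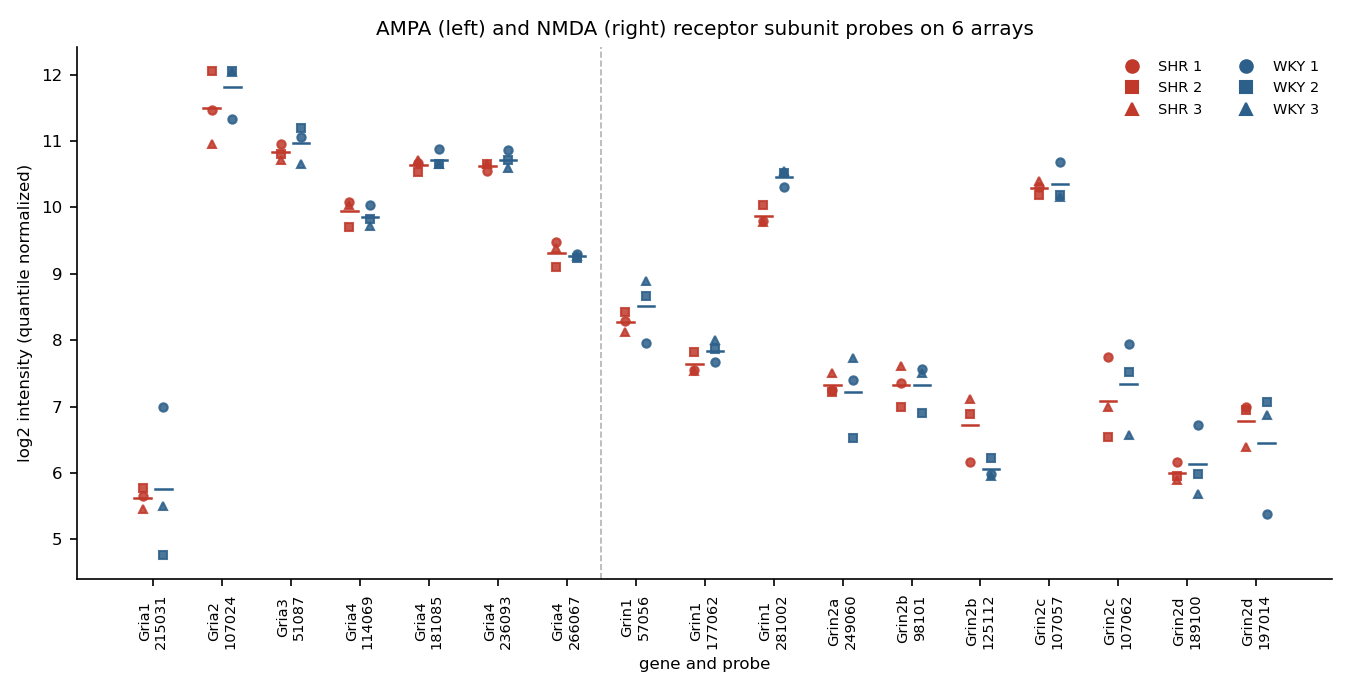
Log2 quantile normalized intensity (vertical axis) of each AMPA and NMDA subunit probe (horizontal axis) on the 3 SHR arrays (red) and 3 WKY arrays (blue), with a bar at each strain mean. Only Grin1 probe 281002 has all red points below all blue points, and WKY 1 (blue circle) lies far from the other 2 WKY arrays at Gria1 and at Grin2d probe 197014.

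Grin1 encodes the obligatory subunit that binds glycine or D-serine. At its brightest probe, 281002, the SHR arrays read 894, 1052 and 879 intensity units and the WKY arrays 1271, 1472 and 1497. The highest SHR value, on SHR 2, lay below the lowest WKY value, on WKY 1. On the log2 scale SHR averaged 9.87 ± 0.14 (SD, n = 3) and WKY 10.46 ± 0.13. The difference was -0.59 ± 0.14 (SE), with a 95% interval from -0.93 to -0.24 and an adjusted p of 0.506 in limma (unadjusted p = 0.00533, rank 349 of all probes). It lay between -0.67 and -0.40 in the alternative settings, with an unadjusted p under 0.05 in 16 of 17 of them. The exception was the setting without normalization (-0.40, unadjusted p = 0.0729 in limma). Leaving out single arrays gave values from -0.67 to -0.54.

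The other Grin1 probes also read lower in SHR on average, but by less and with overlap. Probe 177062 read 188, 225 and 186 units in SHR and 203, 233 and 255 in WKY, a difference of -0.21 ± 0.15 (SE). SHR 2 exceeded WKY 1 there. Probe 57056 read 314, 342 and 280 units in SHR and 248, 409 and 474 in WKY, a difference of -0.23 ± 0.26. WKY 1 was its lowest array, and without it the difference was -0.50 (unadjusted p = 0.0249 in limma). The platform annotation lists the same 2 sequence records for probes 57056 and 281002. Set against each other within arrays, probe 281002 differed between strains by -0.38 more than probe 177062 and by -0.36 more than probe 57056. In both cases the strains did not overlap, and the exact two-sided permutation p of 0.1 is the smallest that 3 against 3 arrays allow (adjusted p = 0.267 over the 8 probe pairs compared).

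The Grin2 subunits bind glutamate. Grin2a, which gives receptors fast kinetics and dominates in mature brain, read 153, 149 and 182 units in SHR and 169, 92.2 and 212 in WKY. The WKY arrays spanned the SHR arrays, and the difference was 0.11 ± 0.31 (SE), or -0.24 without WKY 2, the lowest array.

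Grin2b, the slower subunit typical of developing neurons, had 2 probes. Probe 98101 read 163, 128 and 196 units in SHR and 190, 120 and 182 in WKY, a difference of -0.01 ± 0.25. Probe 125112 read 72.0, 118 and 139 units in SHR and 63.2, 75.2 and 62.3 in WKY. SHR 1 lay within the WKY range and the other SHR arrays above it. The difference was 0.67 ± 0.26 (SE), with an adjusted p of 0.636 in limma (unadjusted p = 0.0407), and 0.43 with an offset of 50 units before log2. Its mean signal was brighter than that of only 13.3% of all probes. Its unadjusted p stayed under 0.05 in 5 of 15 alternative settings, and was 0.0887 with an intensity trend and robust prior in limma. The difference between the 2 Grin2b probes overlapped between strains (exact permutation p = 0.2, adjusted p = 0.4 over the 8 pairs).

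Grin2c, the subunit of weak magnesium block known from cerebellar granule cells and astrocytes, read 1268, 1159 and 1349 units in SHR and 1654, 1166 and 1141 in WKY at its brighter probe, 107057. All SHR arrays lay inside the WKY range, whose top was WKY 1. The difference was -0.05 ± 0.18, with a 95% interval from -0.49 to 0.39, and it was 0.12 without WKY 1. The dim probe, 107062, read 215, 92.9 and 128 units in SHR and 245, 183 and 95.4 in WKY, a difference of -0.25 ± 0.44.

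Grin2d, a subunit of brainstem, midbrain and interneurons with slow deactivation, gave differences of 0.34 ± 0.46 at probe 197014 and -0.13 ± 0.28 at probe 189100. WKY 1 decided both signs. At probe 197014 it read 42.1 units against 118 to 135 on the other WKY arrays, and the difference without it was -0.19. At probe 189100 it read 106 units against 51.6 and 63.2, and the difference without it was 0.17. SHR read 84.7 to 128 and 59.4 to 71.3 units at these probes. Of the 10 NMDA probes, 3 lay among the dimmest 25% of all probes.

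The AMPA subunits showed no separation between the strains at any of their 7 probes, and 0 of them had an unadjusted p under 0.05. Gria2, the subunit that limits calcium entry, varied most among the bright members. Its probe read 2829.6, 4241 and 1989.7 units in SHR and 2566, 4250.3 and 4221 in WKY. SHR 2, WKY 2 and WKY 3 were near one level and SHR 1, SHR 3 and WKY 1 were lower, so the high and low arrays crossed the strains. The difference was -0.32 ± 0.33 (SE), with a 95% interval from -1.12 to 0.49. It was -0.60 without SHR 2, -0.56 without WKY 1 and -0.05 without SHR 3.

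Gria3, a subunit that pairs mostly with Gria2, read 1981, 1795 and 1688 units in SHR and 2135, 2338.5 and 1605 in WKY. All SHR arrays lay inside the WKY range, and the difference was -0.14 ± 0.18.

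Gria4, a subunit of fast AMPA receptors abundant in brainstem and cerebellum, had 4 probes with small differences of both signs. The brightest, 181085, read 1633, 1475 and 1689 units in SHR and 1880.3, 1605 and 1606 in WKY, a difference of -0.08 ± 0.13 with a 95% interval from -0.41 to 0.24. Probe 236093 gave -0.11 ± 0.13, probe 114069 gave 0.09 ± 0.16 and probe 266067 gave 0.05 ± 0.14. The 95% intervals of these probes end at 0.753 and 1.18, 0.748 and 1.15, 0.807 and 1.40 and 0.812 and 1.31 as ratios of SHR over WKY, so a 1.5-fold difference lies outside each of them. These were the narrowest intervals among the AMPA probes. Within arrays, probe 181085 differed between strains by -0.17 more than probe 114069, with no overlap (exact permutation p = 0.1, adjusted p = 0.267).

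Gria1, a subunit of activity-dependent synaptic insertion in forebrain neurons, had 1 very dim probe, brighter than only 0.993% of all probes. It read 50.5, 55.1 and 43.9 units in SHR and 128, 27.3 and 45.3 in WKY. WKY 1 lay far above and WKY 2 below all other arrays. The difference was -0.12 ± 0.53 and turned to 0.50 without WKY 1, so no direction can be read for Gria1.

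**Figure D2:**
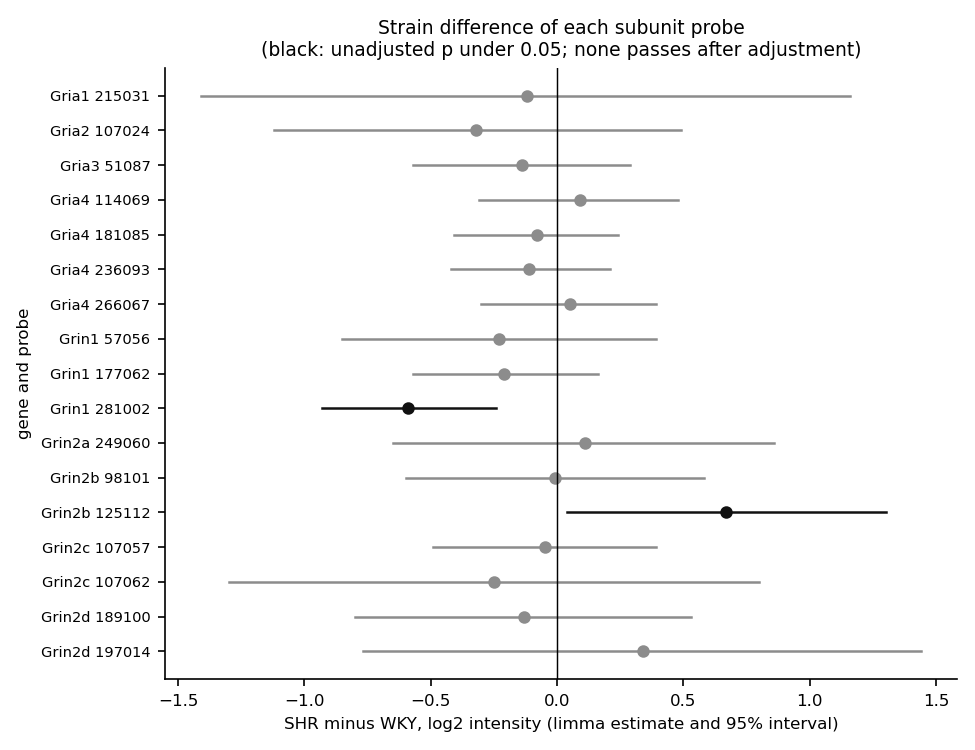
Difference SHR minus WKY in log2 intensity (horizontal axis) with its 95% interval from limma for each of the 17 subunit probes (vertical axis), with probes of unadjusted p under 0.05 in black. Grin1 probe 281002 at -0.59 and Grin2b probe 125112 at 0.67 are the black points, and the intervals of 12 probes lie wholly within a 2-fold difference either way.

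The cells were checked against marker lists, each given as the mean of its genes' log2 values centred over the 6 arrays. Of 17 neuronal markers 13 were tested, 5 above and 8 below 0, with a median difference of -0.13. Nefh, the heavy neurofilament gene, was the only one with an unadjusted p under 0.05 (0.40 ± 0.15, higher in SHR). Its probe was dim, at 46.8 to 75.1 units, and brighter than only 3.75% of all probes. Eno2, the neuronal enolase gene, gave -0.53 ± 0.29. Levels of 3 further markers were picked with their values in view. Stmn2, a neuronal cytoskeleton gene, read 9529 to 14009 units (0.26 ± 0.15), and Uchl1, a gene of protein turnover, 14804 to 21576 (0.16 ± 0.16). Snap25, a synaptic fusion protein gene, read 36.9 to 104 units (-0.59 ± 0.33), a dim signal brighter than only 1.27% of probes. Bright markers of the list also lay below 0, among them Elavl3 (-0.84 ± 0.51), Mapt (-0.41 ± 0.26) and Dcx (-0.33 ± 0.31). These too were picked with their values in view. The neuronal score was -0.24, 0.26 and -0.26 in SHR and -0.04, 0.26 and 0.03 in WKY. Of 7 oligodendrocyte precursor markers 5 were tested, 1 above and 4 below 0, with a median difference of -0.08. Cspg4 (-0.76 ± 0.28) and Pdgfra (0.37 ± 0.16) were separated in opposite directions. Sox10 gave -0.87 ± 0.50, while Olig1 (-0.04 ± 0.13) and Olig2 (-0.08 ± 0.14) lay near 0. The score of these 5 markers was -0.24, 0.18 and -0.36 in SHR and -0.10, 0.35 and 0.16 in WKY. Centred in the same way, the SHR values of Grin1 probe 281002 were -0.36, -0.13 and -0.39, and its WKY values 0.14, 0.36 and 0.38. Both scores and this probe were lowest on SHR 1 and SHR 3, but SHR 2 lay at or above WKY 1 and WKY 3 in both scores and below every WKY array in Grin1. Gria2 shared with both scores the high values of SHR 2 and WKY 2 and the low ones of SHR 1 and SHR 3.

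The 11 oligodendrocyte markers scored -0.82, 0.33 and -0.87 on the SHR arrays against 0.63, 0.55 and 0.18 on the WKY arrays. All 11 genes lay below 0, with a median difference of -0.95. Enpp6 (-1.51 ± 0.48) and Mobp (-1.46 ± 0.51, and -2.02 and -0.23 at its other probes) had its smallest unadjusted p. The 10 astrocyte markers scored 0.03 to 0.13 in SHR and -0.12 to 0.01 in WKY, with a median of 0.03. Of these markers 5 lay above and 5 below 0. Gjb6 (1.28 ± 0.38) and Aldh1l1 (-0.45 ± 0.16) were separated in opposite directions. Fibroblast and meningeal markers had a median of 0.48, and ependymal and choroid plexus markers one of 0.94. Endothelial markers had a median of 0.18, smooth muscle markers one of -0.29 and microglial markers one of -0.08. The part of cell composition in the subunit values was not tested.

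**Figure D3:**
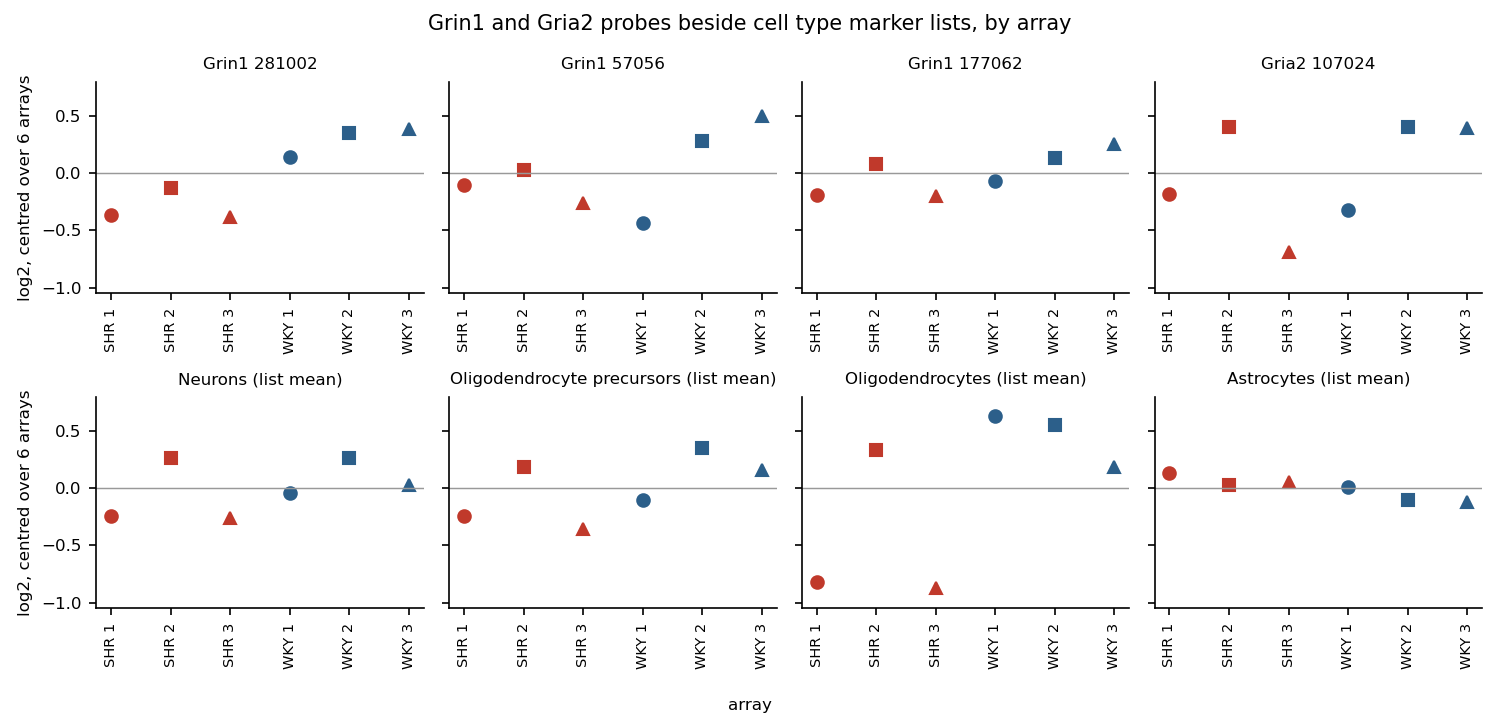
Log2 values centred over the 6 arrays (vertical axis) on the 3 SHR arrays (red) and 3 WKY arrays (blue) for the Grin1 probes and Gria2 (upper row) and for the mean of 4 marker lists (lower row). Grin1 probe 281002 splits by strain, while Gria2 is high on SHR 2, WKY 2 and WKY 3 and low on SHR 1, SHR 3 and WKY 1.

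The wider glutamate system was described with 7 lists of 109 genes, of which 86 were tested at 1 probe each. That was the brightest probe valid on all 6 arrays, or, for the 5 genes without one (Grm8, Cacng8, Cnih2, Dlgap2 and Slc1a6), the brightest with 1 array missing. Of these, 8 (9.30%) had an unadjusted p under 0.05, all of them lower in SHR, against 6.85% of 12082 named genes in both directions and 3.40% in the lower one. None passed after adjustment (0 of 86 in limma). The strains were separated in either direction at 12 of the 81 genes valid on all arrays (14.8%), against 13.9% of all named genes valid on all arrays. The median difference was -0.04, against -0.00091 for all named genes. The lists were chosen with earlier results of these data known, so these shares describe them and are not independent support.

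Kainate receptor subunits held 3 of the 8 genes. Grik4, a high-affinity kainate subunit, read 1794, 2449 and 1475 units in SHR and 3272, 3113 and 2653 in WKY. Every SHR array lay below every WKY array, with a difference of -0.69 ± 0.21 (SE) and an adjusted p of 0.572 in limma, and its second probe gave -0.62 ± 0.18. Grik2 read 50.4, 106 and 173 units in SHR and 187, 259 and 220.1 in WKY (-1.18 ± 0.44). Its probe was dim, brighter than only 25.2% of all probes, and SHR 1 was its lowest array. The dim Grik3 probe gave -0.67 ± 0.24. Among the remaining subunits tested, Grik1 (0.13 ± 0.22) and Grid1 (0.08 ± 0.15) were above 0 and Grik5 (-0.18 ± 0.18), Grin3a (-0.03 ± 0.17) and Grin3b (-0.26 ± 0.23) below, the last 5 genes chosen after their values were seen. Without WKY 1, 0 of the 8 genes of this list had an unadjusted p under 0.05, and without SHR 2 there was 1. That count was 4 without SHR 1, and 2 without SHR 3, without WKY 2 or without WKY 3. It was also 2 without normalization, without the dimmest 25% of probes, with array weights or with a trend and robust prior.

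No metabotropic glutamate receptor, of 7 tested, had an unadjusted p under 0.05, and 1 did without SHR 3. Grm5, a receptor coupled to phospholipase C, gave 0.15 ± 0.12 at its brightest probe and 0.35 ± 0.16 at its other one (unadjusted p = 0.061 in limma). Grm2, an inhibitory presynaptic receptor, gave -0.09 ± 0.15, and Grm6 0.13 ± 0.38.

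Proteins that bind and cluster AMPA receptors had 1 of 13 genes with an unadjusted p under 0.05. Nptx1, a secreted pentraxin that gathers AMPA receptors at synapses, read 229, 299.8 and 195 units in SHR and 415, 447 and 379 in WKY. The strains did not overlap, and the difference was -0.80 ± 0.19 (SE) with an adjusted p of 0.503 in limma. Olfm2 (-0.37 ± 0.16) and Olfm1 (-0.58 ± 0.26, with -0.16 at its other probe), secreted proteins found in AMPA receptor complexes, followed it. Of the 13 genes, 10 lay below 0, against 50.2% of 12082 named genes, and the median difference was -0.10. The count of 1 was 3 without SHR 2, 3 without WKY 1 and 3 without the dimmest 25% of probes, and 2 with array weights, with the replicate block or with a trend and robust prior.

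Postsynaptic scaffolds had 3 of 23 genes with an unadjusted p under 0.05. Homer2, which links group I metabotropic receptors to Shank proteins, read 1289.7, 1344 and 1119 units in SHR and 2772, 2493 and 2528 in WKY. The difference was -1.06 ± 0.13 (SE), with an adjusted p of 0.190 in limma. Dlg3, which encodes the NMDA receptor scaffold SAP102, gave -0.55 ± 0.17 with no overlap, but 0.03 ± 0.19 at its other probe. Mpp2, a membrane-associated guanylate kinase, gave -0.44 ± 0.17, and 0.03 and 0.16 at its other probes. Across the list 11 genes lay above and 12 below 0, with a median of 0.00. The scaffold count was 6 without WKY 1 and 5 without SHR 2. It was 2 without SHR 1, without SHR 3 or without WKY 3, and 1 without normalization.

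The kinases, phosphatases and trafficking proteins of the receptors had 0 of 17 genes with an unadjusted p under 0.05, and 2 with median-centred intensities or without the dimmest 25% of probes. Ppp3ca, a catalytic subunit of calcineurin, differed by -0.32 ± 0.14 (-0.40 ± 0.20 at its other probe), and Prkca, a protein kinase C, by -0.36 ± 0.16, both with no overlap. Camk2d, a calcium/calmodulin kinase subunit, was separated the other way (0.30 ± 0.18), but narrowly, with SHR 3 at 147 and WKY 3 at 145 units. Glutamate supply and uptake had 1 of 12, the aspartate aminotransferase gene Got1, with 4518, 5191 and 4555 units in SHR and 5891, 6294 and 6436 in WKY (-0.39 ± 0.13, and -0.16 ± 0.15 at its other probe). That count was 0 without SHR 1, without SHR 3, without WKY 2 or without normalization, and 2 without SHR 2 or without WKY 1. The uptake carrier gene Slc1a1 gave -0.76 ± 0.38 and the vesicular carrier gene Slc17a7 -0.23 ± 0.23. The genes that supply the NMDA co-agonists had 0 of 6 (1 with the trend and robust prior). Psat1, an enzyme of serine synthesis, was higher in every SHR array (0.27 ± 0.14, and 0.41 ± 0.21 at its other probe). The gap was narrow, with SHR 2 at 16152 and WKY 1 at 16116 units. Dao, which breaks down D-serine, gave -0.18 ± 0.15 and Psph -0.20 ± 0.18.

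**Figure D4:**
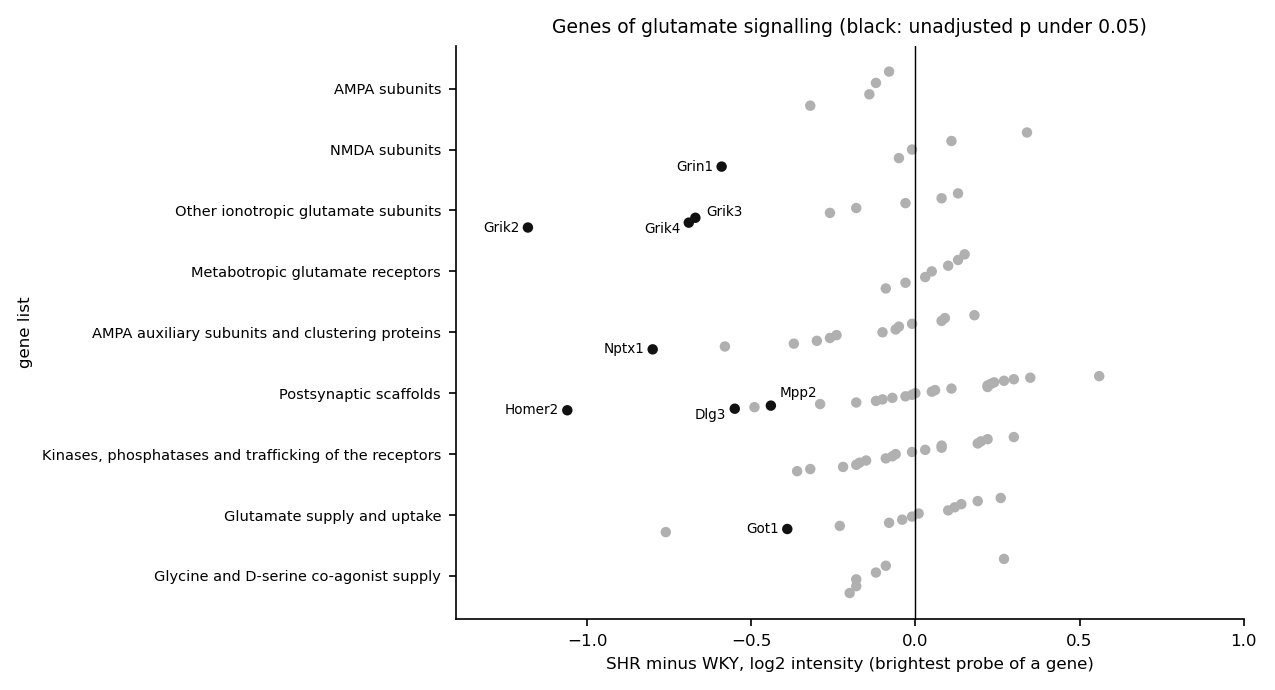
Difference SHR minus WKY in log2 intensity (horizontal axis) for each gene of the subunit and pathway lists (vertical axis), 1 point per gene at its brightest probe (valid on all arrays where the gene has such a probe), with genes of unadjusted p under 0.05 in black and named. All the named genes lie left of 0, with Grik2 (a dim probe) at -1.18 and Homer2 at -1.06 farthest from it.

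Among the 159 list genes valid on all arrays, those whose pattern over the 6 arrays lay nearest to Grin1 probe 281002 were ranked by the root mean square difference of centred log2 values. Mpp2 (0.0978) and Got1 (0.109) were nearest, followed by Olfm2 (0.161), Ppp3ca (0.168) and Acta2 (0.173), a smooth muscle actin gene. A gene that did not vary at all would score 0.314, and the median gene scored 0.372.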

How the data were processed

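Log2 intensities of 6 single-colour CodeLink arrays (3 SHR, 3 WKY) were analysed. Per the labels, the authors subtracted the background of each spot intensity, set a filter at the negative controls plus 2 SD and normalized by the quantile method. Software versions and a genome build: not given in the sources used. The series table, with quantile normalized intensity as deposited, was the main source, and the deposited per-sample tables, not normalized between arrays, were an alternative. Entries at or below 0 counted as missing, and no offset was added before log2. The series table held 615 entries at or below 0 on each array. The per-sample tables held 171 to 233 entries per array with a fixed negative code, whose meaning the labels do not give. The cause of the difference was not tested. Probes valid on 3 arrays of one strain and at least 2 of the other were kept (33249, with 600 left out).

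Each probe was tested for SHR minus WKY by lmFit and eBayes of limma 3.58.1 under R 4.3.3, two-sided, adjusted by Benjamini-Hochberg over all probes, at a threshold of 0.05. The procedure was tested on simulated data. Gene names come from the platform annotation: 16753 probes have 1 symbol, of which 16724 were matched by gene identifier to the RefSeq table of GRCr8. Probe sequences were not used here. Gene lists used the brightest probe of a gene valid on all arrays, or the brightest tested one where there was none. The members, lists and settings were chosen with earlier results of these data known. Every member probe is named, then up to 3 genes per pathway list and 2 per marker list by smallest unadjusted p, for some marker lists by median only, and the 5 genes nearest in pattern to the member probe with the smallest p. Further genes were picked with their values in view, among them Stmn2, Uchl1 and Snap25. Same-numbered arrays deviated together with correlations of 0.0011, 0.22 and -0.13, so the numbers were not taken to pair them. The 18 alternative settings cover normalization, filters, an offset, the variance model, array weights, a replicate block and each array left out. Figures were drawn with matplotlib 3.10.9.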

Additional observations from a re-analysis of the deposited data

How the results depend on the processing

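No subunit probe passed the adjusted threshold in any setting. Grin1 probe 281002 kept its sign in all 17 settings, with adjusted p from 0.353 to 0.857 in limma. Over all probes the number past the threshold was 0, and became 5 with array weights, 5 when only probes with 6 values were kept, 9 with 1 probe per named gene, 13 at an adjusted p of 0.10, 13 with an offset of 50, 18 when the dimmest 25% were left out and 28 when limma used a trend and robust prior. It was 0 in each fit that left out an array, and 0 with the replicate block. The count of subunit probes with an unadjusted p under 0.05, 2 in the main setting, was 2 with the replicate block, 0 without normalization and 1 with median-centred intensities, the offset, the trend and robust prior, array weights, 1 probe per gene or the dimmest probes left out, and 1 to 2 without single arrays. The count of 8 pathway genes was 4 without normalization, 9 with the replicate block and 6 to 11 without single arrays. The median difference of subunit probes was 0.047 without normalization and -0.14 to 0.048 without single arrays. Without normalization, sign changes occurred at Gria3 (0.047), Gria4 (0.108 at probe 181085 and 0.087 at 236093), Grin2b probe 98101 (0.0087) and Grin2c probe 107057 (0.141), and with median centring at Grin2a (-0.0024). Leaving out single arrays turned the sign at Gria1 (-0.616 to 0.495), Gria4 probe 266067 (-0.032 to 0.158), Grin2a (-0.238 to 0.362), Grin2b probe 98101 (-0.219 to 0.153), Grin2c (-0.145 to 0.123 and -0.633 to 0.048) and Grin2d (-0.354 to 0.166 and -0.191 to 0.649). The causes were not tested. The 4 subunit probes among the dimmest 25% (Gria1, Grin2b probe 125112 and both of Grin2d) had standard errors from 0.26 to 0.53, against 0.13 to 0.44 at the other 13.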

Other observations

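Some genes of the receptor lists and of the marker lists split the 6 arrays across the strains and in opposite ways. They were chosen after their values were seen and were not tested. Nsg2, an endosomal protein gene of neurons, read 7634, 4714 and 8483 units in SHR and 9448.5, 4412 and 4873 in WKY, so SHR 1, SHR 3 and WKY 1 were high. Dlgap1, a scaffold of the postsynaptic density, read 3031, 1796 and 4143 units in SHR and 3576, 1486 and 2069 in WKY, with the same arrays high. Gria2 was low on exactly these 3 arrays. Elavl3, a neuronal RNA-binding protein gene, read 2448, 6894 and 2022 units in SHR and 4030.3, 8287 and 5826 in WKY, and Sox10, a transcription factor of the oligodendrocyte lineage, read 1899.8, 4029 and 1443 in SHR and 2316, 6159 and 4766 in WKY. Both were low on the 3 arrays where Nsg2 was high. The split was not confined to receptor or neuronal genes. Foxj1, of the ependymal list, was high on the same arrays, with 2531, 1038 and 2604 units in SHR and 1703, 642 and 890 in WKY. Enpp6, of the oligodendrocyte list, was low on them. The labels name nothing that SHR 1, SHR 3 and WKY 1 share.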
